A study of Mus musculus with 27 samples.

Results

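The SNX-BAR sorting nexins that work with the retromer, and the subunits of the WASH complex, were examined in the cortex of 5xFAD mice 24 h after an intracortical injection of a retromer stabilizer. The 9 genes were taken by symbol from the deposited expression table, where they are written snx1, snx2, snx5, snx6, washc1, washc2, washc3, washc4 and washc5. They are 9 of 26264 listed symbols, and all 9 were among the 12976 genes that entered the tests because their mean over the libraries reached 1 FPKM (fragments scaled by transcript length and by the library's total). Female 5xFAD/C57BL6 mice of 16 weeks, which carry mutant human transgenes, APP among them, driven by the neuronal Thy1 promoter, received 500 nL of 10 mM R55, of 10 mM R33, or of the vehicle with the same DMSO and beta-cyclodextrin, into the cortex of 1 hemisphere. Every group, controls included, carried the transgenes, and no mouse without them was compared here. A small block of cortex around the injection site and the matching block of the other hemisphere were sequenced as polyA RNA. The vehicle group held 4 injected and 4 contralateral libraries from 4 mice, the R33 group 5 injected and 4 contralateral libraries from 5 mice, and the R55 group 5 of each from 5 mice, 27 libraries from 14 mice in all.

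Retromer selects cargo on endosomes and sends it back to the Golgi or to the cell surface. SNX-BAR proteins carry a PX domain, which brings them to endosomal lipids, and a BAR domain, through which they bend the membrane into tubules. They act as dimers that pair SNX1 or SNX2 with SNX5 or SNX6. The WASH complex sits on the same endosomal subdomains, is recruited there in large part through retromer, and activates the Arp2/3 complex, so that branched actin forms where carriers leave. WASHC1 holds the domain that activates Arp2/3, WASHC2 (FAM21) carries the long tail that binds retromer and capping protein, and WASHC3 (CCDC53), WASHC4 (SWIP) and WASHC5 (strumpellin) make up the rest of the core. WASHC4 and WASHC5 are known from inherited neurological disease, intellectual disability for the first and spastic paraplegia for the second.

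The sequence next to the start of transcription was taken from the RefSeq promoter table, which holds 7 of the 9 genes (not Snx2 and Washc5), and each stretch was placed on GRCm39 by an exact match. The palindromic E-box CACGTG, the core of the element that the lysosomal and endosomal regulators TFEB and MITF bind, was found within 250 bases before a listed start of 3 of the 7 genes. The same search matched 6.02% of all 32851 promoter windows. A gene was counted if any of its listed starts had the motif, while this share and those below are over single windows. The counts and the shares are therefore unlike measures. The 30 bases around each E-box are printed here, with the E-box in capitals, because it was the least common of the searched motifs that genes of both groups held.
Snx5, chr2:144112525-144112554, minus strand: gcactgggggagCACGTGgcgtgccgctcg
Washc1, chr17:66418610-66418639, plus strand: gggcggggacgctCACGTGaggacgccgcc
Washc2, chr6:116184961-116184990, plus strand: tgcgccccaggtCACGTGaggacaccatca

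The E-box began 50 bases before the listed start in Snx5, 17 in Washc1 and 21 in Washc2. In Washc1 and Washc2 it lay within the longer palindrome TCACGTGA, which 0.785% of all windows held. A CCAAT box, searched as CCAAT on both strands, was present in Snx1, Washc2 and Washc3 and in 33.8% of all windows, and a GC box, GGGCGG, was present in 4 of the 7 genes and in 32.7% of windows. The letters CCGGAAG were found in 1 gene (Washc1) and 6.91% of windows, TATAAA in 1 gene (Washc4) and 12.4%, and TGACGTCA in 0 genes and 1.55%, all on both strands. The printed stretches overlap annotated exons, those of Snx5 and of Mgme1, of Washc1, and of Washc2 and 9530062K07Rik. These matches describe letters in a window and no binding was measured.

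By GENCODE vM39 on GRCm39 the members lie apart from each other, on chromosome 9 (Snx1, 65994391-66033869, minus strand), chromosome 18 (Snx2, 53309287-53353963, plus), chromosome 2 (Snx5, 144092025-144112885, minus), chromosome 12 (Snx6, 54792207-54842533, minus), chromosome 17 (Washc1, 66418521-66427498, plus), chromosome 6 (Washc2, 116184710-116240221, plus) and chromosome 15 (Washc5, 59202427-59246061, minus). Washc4 (83379616-83444990) and Washc3 (88036955-88082020) share the plus strand of chromosome 10. Values are per gene, so transcript isoforms were not told apart.

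The libraries held 15932197 to 38077024 counted fragments, with a median of 27441308. A member value rested on 150 fragments at the least, for Washc3, and 4581 at the most, for Snx5. The 3 cortical excitatory neuron markers Tbr1, Cux2 and Rorb summed to between 36.8 and 90.0 FPKM in every library. The red blood cell genes Hbb-bs and Hba-a1 were listed at 0 throughout, so they gave no measure of blood in the blocks. Markers of striatal neurons, which lie outside the cortex, had a median sum of 40.3 FPKM. They reached 184.7 FPKM in the injected hemisphere of R33 mouse N and 134.8 FPKM in that of vehicle mouse L. No contralateral or R55 library exceeded 65.7 FPKM, and no fit left out just the injected libraries of mice N and L. In 2 libraries the deviation of genes from their mean followed transcript length, with a slope on log2 length of -0.227 in the injected hemisphere of R33 mouse AD and -0.175 in the contralateral hemisphere of R55 mouse Q, while the other 25 libraries lay between -0.061 and 0.065. Both libraries were kept. In the comparisons with vehicle, estimates without each are given where it held the highest or lowest value of a member.

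All 9 members were expressed in every library, and the order of their means held in every library for some neighbours only. Snx5 was highest, at 41.3 ± 5.16 FPKM (SD, n = 27 libraries), followed by Snx1 at 34.6 ± 3.50, Washc2 at 27.1 ± 2.85, Snx2 at 25.5 ± 3.77 and Snx6 at 20.4 ± 2.35. The other WASH subunits were lower, with Washc5 at 11.8 ± 0.853, Washc1 at 11.1 ± 0.836, Washc3 at 9.45 ± 1.57 and Washc4 at 6.96 ± 0.961 FPKM. Snx5 exceeded Snx1 in 27 of 27 libraries and Snx6 exceeded Washc5 in 27 of 27. Washc2 and Snx2 were not separable, since Washc2 was the higher in 15 of 27, and Washc5 exceeded Washc1 in 21 of 27.

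The summed levels of the listed members on the 2 sides of the SNX-BAR dimer were close to each other. The 8 other SNX-BAR nexins were not in these sums, so the sums may not give the whole of either side. The highest of them, Snx32, stood at 34.2 ± 3.93 FPKM (SD, n = 27), above Snx2 and Snx6. The closeness of the sums therefore holds for the listed members only. Snx1 and Snx2 together reached 60.1 ± 6.47 FPKM and Snx5 and Snx6 together 61.7 ± 7.10 (SD, n = 27), a ratio of 0.977 ± 0.0791 that ran from 0.790 to 1.11 over the libraries. The ratio was 0.992 ± 0.0663 in vehicle libraries (n = 8), 0.973 ± 0.0660 in R33 libraries (n = 9) and 0.969 ± 0.103 in R55 libraries (n = 10), so the groups differed by less than their spread. Within each side the genes were unequal, with 2.03 ± 0.164 times as much Snx5 as Snx6 and 1.38 ± 0.165 times as much Snx1 as Snx2. The WASH subunits ranged from near-equal to far apart, with 1.07 ± 0.126 times as much Washc5 as Washc1, 1.72 ± 0.194 times as much Washc5 as Washc4 and 3.98 ± 0.687 times as much Washc2 as Washc4.

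**Figure D1:**
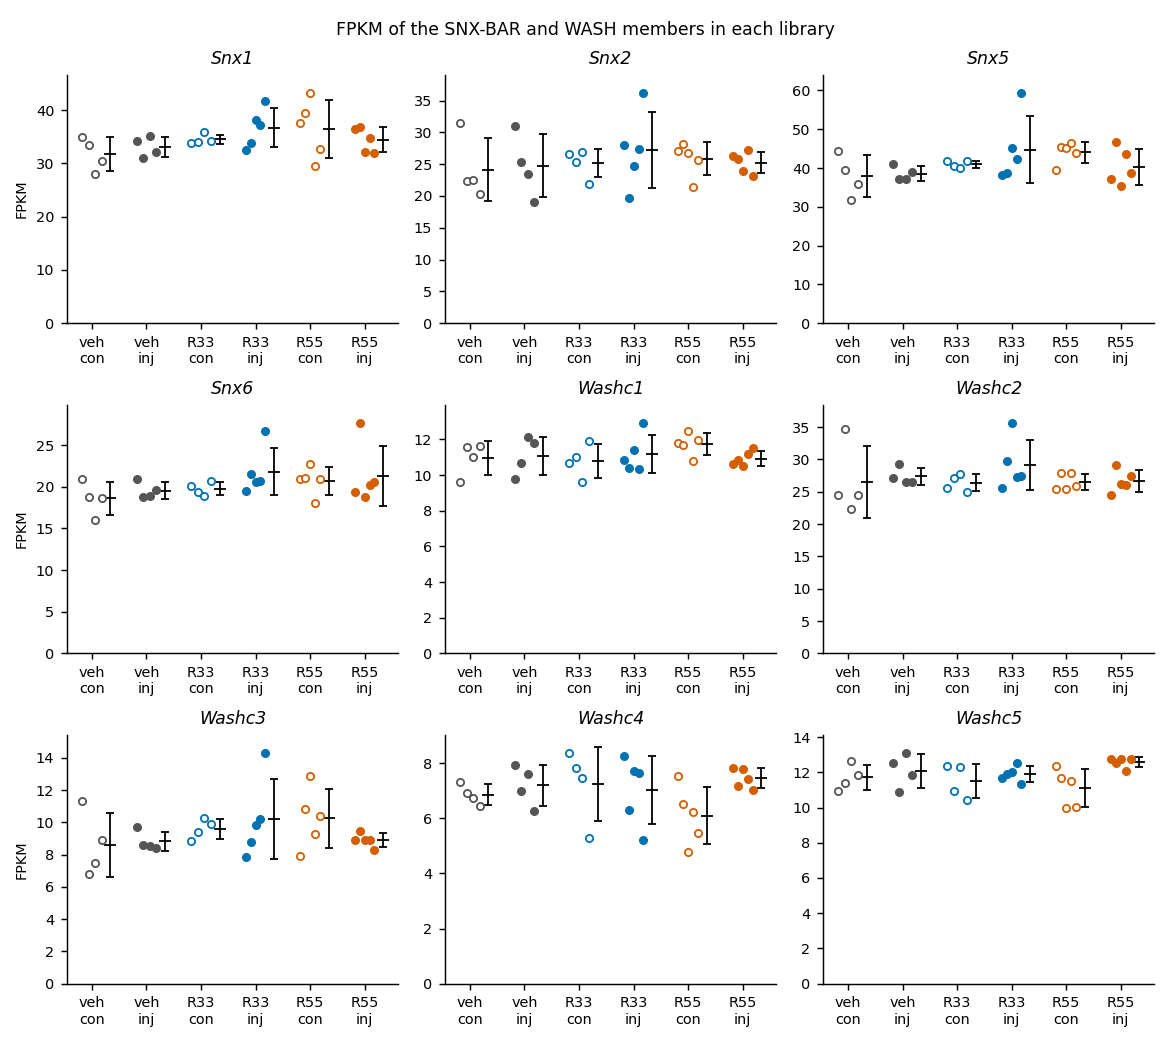
FPKM of each member (vertical axis, from 0) in each library, by treatment and hemisphere (con, contralateral, open points; inj, injected, filled points). Black bars give the mean and SD of each group of 4 or 5 libraries; the groups overlap for every member, and the highest Snx5 point, at 59.4 FPKM, is the injected hemisphere of R33 mouse AD.

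The first question was whether R55, which stabilizes the retromer core, went with a change in the transcripts of its membrane-bending and actin-nucleating partners. No member passed the test in the comparison of R55 with vehicle (0 of 9, limma with Benjamini-Hochberg adjustment over all tested genes), where 0.00771% of the 12976 genes, a single gene that was lower, did. At an unadjusted p under 0.05 the count was also 0 of 9, against 8.45% of all genes. The estimates of the 4 SNX-BAR genes all lay above 0, and those of the WASH genes lay on both sides of it.

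Snx5, the most abundant SNX-BAR transcript, measured 44.5, 39.6, 31.8 and 36.0 FPKM in the contralateral and 41.1, 37.1, 37.1 and 39.0 FPKM in the injected hemisphere of vehicle mice J, M, L and AH. In R55 mice P, AA, Q, R and AB it measured 39.5, 45.3, 45.1, 46.5 and 44.0 FPKM contralaterally and 37.2, 46.6, 35.5, 43.6 and 38.9 FPKM on the injected side. The groups overlapped on both sides, with vehicle mouse J among the highest values and vehicle mouse L giving the lowest. Its fitted difference was 0.14 ± 0.076 on the log2(FPKM + 1) scale (SE), a fold of 1.10 with a 95% interval from 0.988 to 1.23, and an adjusted p of 0.604 by limma. With the contralateral hemisphere alone the estimate was 0.22, and with the injected hemisphere alone it was 0.058, neither past the adjusted threshold.

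Snx6, which takes the same place in the dimer as Snx5, differed by 0.13 ± 0.067 (fold 1.09, interval 0.994 to 1.20, adjusted p = 0.589 by limma). In the injected hemisphere 1 R55 library, mouse AA at 27.6 FPKM, stood above the other 4, which ran from 18.7 to 20.6 FPKM and overlapped the vehicle range of 18.7 to 20.9. Snx1, which helps to shape the tubule, differed by 0.12 ± 0.065 (fold 1.09, interval 0.992 to 1.19, adjusted p = 0.598), and by 0.086 without the contralateral library of mouse Q, its highest value at 43.2 FPKM. Snx2, its close paralog, differed by 0.076 ± 0.096 (fold 1.05, interval 0.920 to 1.21, adjusted p = 0.782), and its sign turned to -0.023 among mice with a one-letter label, the only series of labels with several mice in each treatment. Vehicle mouse J had the highest Snx2 of the control group, 31.5 and 31.0 FPKM against 19.1 to 25.4 FPKM in the other 3 vehicle mice.

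Without mouse J the unadjusted p was under 0.05 for 5 members, the 4 SNX-BAR genes and Washc3, in the R55 and in the R33 comparison alike, beside 12.9% and 12.8% of all genes in the same fits, while every adjusted p by limma was at least 0.3004. Both comparisons use the same 4 vehicle mice, so mouse J enters both. Without the injected library of R33 mouse AD, which leaves the R55 estimates as they were, the unadjusted p for R55 was 0.030 for Snx5 and 0.040 for Snx6, beside 12.4% of all genes under 0.05. With the correlation within mice modelled no member was under 0.05 for either compound, beside 4.0% of genes for R55 and 2.25% for R33.

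Among the WASH genes, Washc3 had the highest estimate in the R55 comparison, 0.12 ± 0.094 (fold 1.09, interval 0.953 to 1.24, adjusted p = 0.664 by limma), and Washc4 the lowest, -0.055 ± 0.086 (fold 0.962, interval 0.851 to 1.09, adjusted p = 0.828), which was -0.013 without the contralateral library of mouse Q. Washc3 was then 0.078 and Washc5, also lowest in that library, 0.012. Washc1, the Arp2/3 activator, and Washc2 and Washc5 had estimates of 0.038, -0.0072 and -0.0083. Over the 9 members the median estimate was 0.076, beside 0.026 over all tested genes, and 6 of 9 were above 0, beside 60.2% of all genes.

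R33, the other stabilizer, was compared with the same vehicle libraries, so its estimates and those of R55 share their controls. No member passed (0 of 9, limma), nor did any gene (0%), and 1 member, Snx5, was under an unadjusted p of 0.05, against 5.87% of all genes. Snx5 measured 41.7, 40.5, 40.0 and 41.9 FPKM in the contralateral hemisphere of R33 mice K, O, N and AD, and 38.1, 45.3, 42.3, 59.4 and 38.7 FPKM on the injected side of mice K, O, N, AD and AE. The value of mouse AD stood far above the rest, which lay within the vehicle range but for that of mouse O. The fitted difference of Snx5 was 0.16 ± 0.078 (fold 1.12, interval 1.001 to 1.25, unadjusted p = 0.048 and adjusted p = 0.834 by limma), and without the injected library of mouse AD it was 0.10, with an unadjusted p of 0.117. With the correlation within mice modelled it was 0.16, with an interval in fold from 0.975 to 1.27 and an unadjusted p of 0.108.

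Snx1 differed by 0.14 ± 0.066 (fold 1.10, interval 0.9996 to 1.21, adjusted p = 0.834 by limma), Snx6 by 0.12 ± 0.069 (adjusted p = 0.850) and Snx2 by 0.10 ± 0.098 (adjusted p = 0.863) between R33 and vehicle. Without the injected library of mouse AD, which held the highest Snx2 of all at 36.2 FPKM, these became 0.11, 0.079 and 0.046. Washc3 differed by 0.17 ± 0.096 (fold 1.12, interval 0.979 to 1.29, adjusted p = 0.850), which became 0.10 without the injected library of mouse AD, where it reached 14.3 FPKM against 7.84 to 10.2 FPKM in the other injected R33 libraries. Washc1, Washc2, Washc4 and Washc5 lay between -0.024 and 0.050, and Washc1, highest in that library at 12.9 FPKM, was -0.030 without it. The median over the members was 0.10, beside 0.018 over all tested genes.

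The mouse, not the library, received the injection, so each member was also compared over mice, on the mean log2(FPKM + 1) of the hemispheres, with a two-sided exact permutation test. No member reached an exact p under 0.05 for R55 against vehicle (5 against 4 mice), where 6.47% of all genes did. For R33 against vehicle 1 member did, Snx1, with a difference of 0.13 and an exact p of 0.0476, where 2.04% of genes did and where 126 splits allow a smallest p of 0.00794. For R55 against R33 (5 against 5 mice) no member did, beside 0.809% of genes. In no comparison did the mice of the groups separate without overlap for any member, which 2.41%, 0.771% and 0.1% of all genes did in the same order of comparisons.

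Over these mice Snx1 averaged 32.3 ± 1.52 FPKM in the vehicle group, 35.5 ± 1.91 in the R33 group and 35.3 ± 2.95 in the R55 group (SD, from the mean log2 of the hemispheres; n = 4, 5 and 5). The vehicle mice ran from 31.3 to 34.5 FPKM, the R33 mice from 33.2 to 37.8 and the R55 mice from 32.0 to 38.1, so that the ranges met.

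R55 and R33 were given at the same dose, volume and time, and their readouts were compared directly for each of the 9 members, 9 pairs of values with p-values adjusted over all tested genes. No member differed (0 of 9 by limma, beside 0% of all genes), none was under an unadjusted p of 0.05 (beside 1.15% of genes), and the adjusted p was 0.9998 for each. The estimates ran from -0.057 for Washc2 to 0.040 for Washc1, with -0.054 for Washc4. The intervals of the 9 differences reached from a fold of 0.852 to a fold of 1.12, or from 0.834 to 1.16 with the correlation within mice modelled, so differences of that size between the compounds remain possible in these data. Washc4 had a difference of -0.21 in the contralateral and 0.089 in the injected hemisphere, neither past the threshold. Over all 27 libraries 3 of the 9 estimates lay above 0, with a median of -0.023, beside 53.4% of all genes. Without the injected library of mouse AD 7 of 9 did, with a median of 0.020, beside 56.6% of all genes. The direction of most members thus depended on that library.

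**Figure D2:**
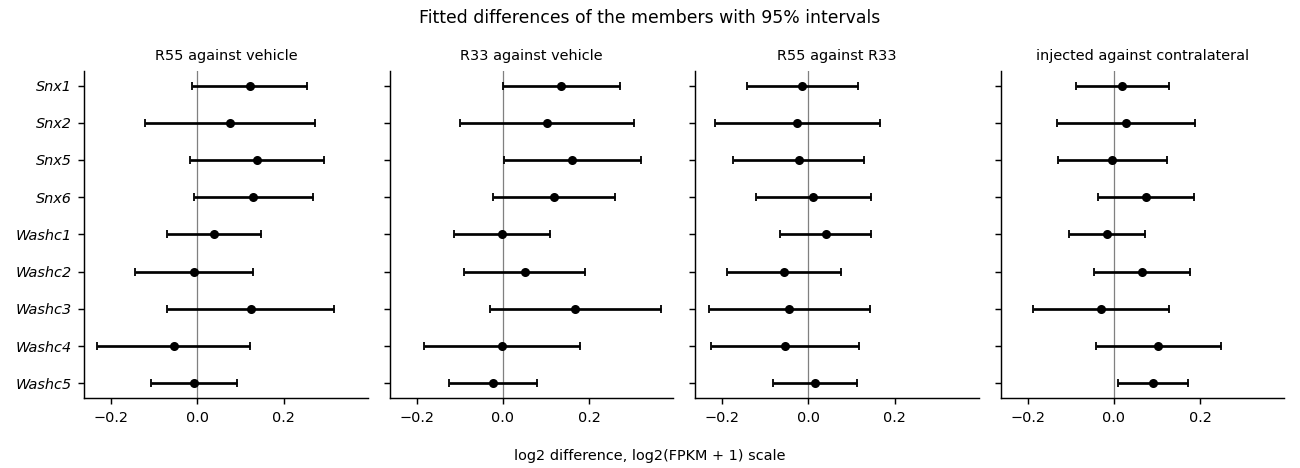
Fitted differences of the 9 members (points) with 95% intervals (bars) on the log2(FPKM + 1) scale, for the comparisons of treatments and of hemispheres, each over all 27 libraries. The SNX-BAR points lie above 0 against vehicle for both compounds, which share their vehicle libraries. The intervals that leave out 0 are those of Snx5 for R33 against vehicle, which takes in 0 with the correlation within mice modelled (p = 0.108 by limma), and Washc5 for the hemispheres.

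The second question was whether the injected hemisphere differed from the other side. No member passed (0 of 9 by limma, beside 0% of genes), and 1 member, Washc5, was under an unadjusted p of 0.05, beside 3.47% of genes. Washc5, which encodes strumpellin, had an estimate of 0.090 ± 0.039 (fold 1.064, interval 1.006 to 1.13, unadjusted p = 0.031, adjusted p = 0.9999 by limma). Washc4, which encodes SWIP, had 0.10 ± 0.070 (fold 1.07, interval 0.972 to 1.19). Snx6 and Washc2 had estimates of 0.074 and 0.065, and the other 5 members lay between -0.030 and 0.028.

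Both hemispheres of 13 mice were sequenced, which allowed each mouse to be its own control. Washc5 was higher on the injected side in 10 of 13 mice, a share that 5.21% of all tested genes reached or passed, and Washc4 in 9 of 13, which 14.3% of genes reached. With the mouse as a block the differences were 0.091 ± 0.038 for Washc5 and 0.12 ± 0.050 for Washc4, with unadjusted p of 0.030 and 0.033 and adjusted p of 0.766 and 0.776 by limma. These were the 2 of 9 members under an unadjusted p of 0.05 in that fit. Of all 12976 genes, 403 were under it and higher on the injected side, and 392 under it and lower. The additive fit, which has no term for the mouse, was also run without mouse Q, whose contralateral library stands apart. Its side differences were then 0.062 for Washc4 and 0.071 for Washc5, with unadjusted p of 0.367 and 0.0817 by limma. With all mice the additive fit gave 0.10 and 0.090, with unadjusted p of 0.153 and 0.031 by limma. The fit with the mouse as a block was not run without mouse Q. Washc2 was higher on the injected side in as many mice as Washc4, 9 of 13. Washc1 was higher there in 8 of 13, which 30.4% of genes reached, and Washc3 in 5 of 13, with 27.6% of genes at 5 or fewer. The members of the SNX-BAR group were higher on the injected side in 6 or 7 of 13 mice, with 48.0% of genes at 6 or fewer and 52.0% at 7 or more.

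The mean difference between the sides of a mouse was 0.26 in R55 mice, 0.057 in vehicle mice and -0.0061 in R33 mice for Washc4, and 0.17, 0.038 and 0.046 for Washc5. Washc4 measured 7.52, 6.51, 4.76, 6.21 and 5.47 FPKM in the contralateral and 7.81, 7.18, 7.80, 7.44 and 7.03 FPKM in the injected hemisphere of R55 mice P, AA, Q, R and AB. In those mice Washc5 measured 12.3, 11.7, 9.99, 11.5 and 10.001 FPKM contralaterally and 12.8, 12.6, 12.8, 12.1 and 12.8 FPKM on the injected side. In all 5 pairs the injected side was the higher for both genes, and the contralateral values of mice Q and AB were the lowest of the group.

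In vehicle mice J, M, L and AH the contralateral Washc4 values were 7.33, 6.93, 6.72 and 6.46 FPKM and the injected ones 7.93, 6.97, 7.61 and 6.26 FPKM. In R33 mice K, O, N and AD they were 8.35, 7.83, 7.45 and 5.30 FPKM and 8.24, 7.72, 7.64 and 5.21 FPKM. The injected side was thus the higher in 3 of 4 vehicle mice and in 1 of 4 R33 mice, and mouse AD was low on both sides.

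Whether the effect of a compound differed between the hemispheres was tested with the interaction term. For R55 no member passed (0 of 9 by limma, beside 0% of genes) and none was under an unadjusted p of 0.05 (beside 1.84% of genes), with Washc4 at 0.21 ± 0.17 and Washc5 at 0.13 ± 0.096, unadjusted p of 0.227 and 0.183. With the mouse as a block the term for Washc4 was 0.21 ± 0.10, with an unadjusted p of 0.066 and an adjusted p of 0.806. For R33 the members ran from -0.093 to 0.073, again with 0 of 9 past either threshold, beside 0% and 0.378% of genes. Of the 9 R33 terms 8 lay above 0, with a median of 0.034, beside 45.6% of all genes. Without the injected library of mouse AD 2 of 9 did, with a median of -0.017, beside 42.0%. With no R55 term past either threshold, the pattern in the R55 mice is a description and not a difference that the test established.

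**Figure D3:**
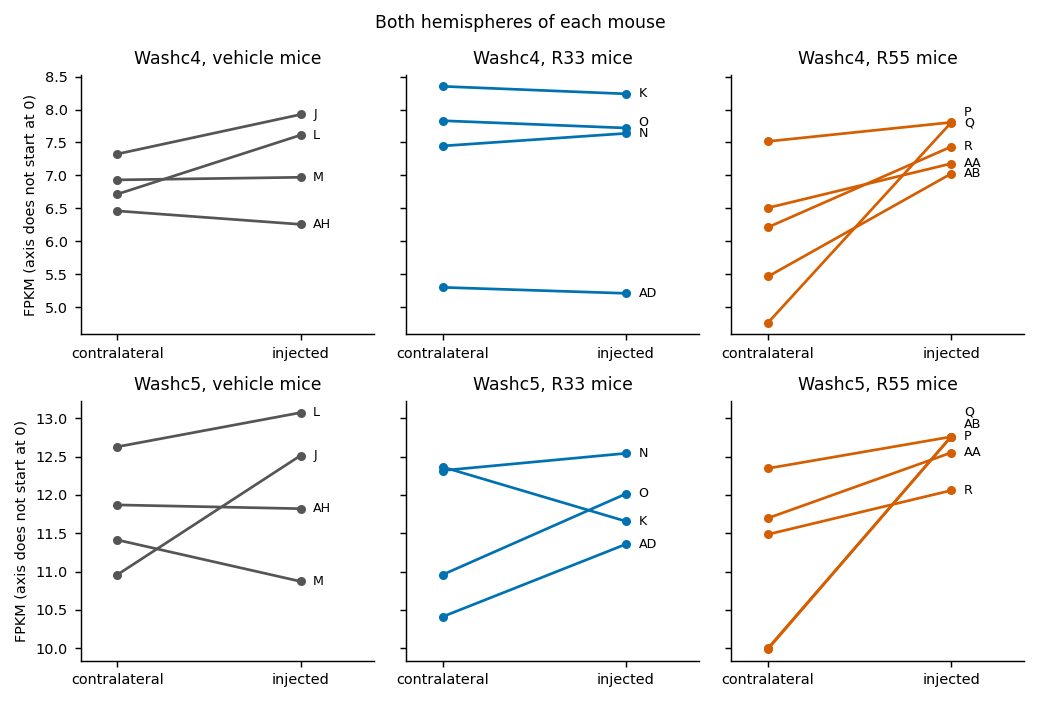
FPKM of Washc4 (upper row) and Washc5 (lower row) in the contralateral and injected hemisphere, with a line for each mouse and its letter beside it, by treatment; the vertical axes do not start at 0. All 5 lines of R55 mice run upwards to the injected side for both genes, steepest for mice Q and AB, and the vehicle and R33 lines go both ways. How many of all genes were as one-sided in the R55 mice was not counted.

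Several members followed the length slope of the libraries, that is, how far long transcripts were high and short ones low in a library. A negative slope means that long transcripts were low. The transcript lengths behind the values ran from 1379 bases for Washc3 to 5858 for Washc4. Over the 27 libraries the log2 level correlated with the slope at r = -0.84 for Washc3, -0.79 for Snx5, -0.68 for Snx6 and -0.64 for Snx1, and at 0.74 for Washc4 and 0.60 for Washc5, while Washc2 stood at 0.078. Libraries of 1 mouse share their animal, and all of them share the scaling, so these are given as a description. Without the injected library of mouse AD and the contralateral library of mouse Q (25 libraries) the values were -0.66 for Washc3, -0.70 for Snx5, -0.52 for Snx6, -0.32 for Snx1, 0.53 for Washc4 and 0.62 for Washc5.

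In the AD library Snx5 was 0.52, Snx2 0.50 and Washc3 0.56 above their mean log2 level, the highest of the 27, and Washc4 was 0.35 below its mean. In the contralateral library of mouse Q Washc4 was 0.45 below its mean, the lowest of the 27, and Washc5 0.22 below, also the lowest. When the length trend of each library was removed before the fit, the R55 estimates were 0.061 for Snx1, 0.017 for Snx2, 0.092 for Snx5, 0.063 for Snx6 and 0.037 for Washc3. The R33 estimates were 0.091, 0.059, 0.13, 0.068 and 0.097 for the same genes, while the side difference of Washc5 was 0.086 and that of Washc4 0.090. The median of the members was then 0.017 for R55 and 0.059 for R33, beside 0.0022 and 0.0024 over all tested genes. How much of any difference the slope accounts for was not tested.

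**Figure D4:**
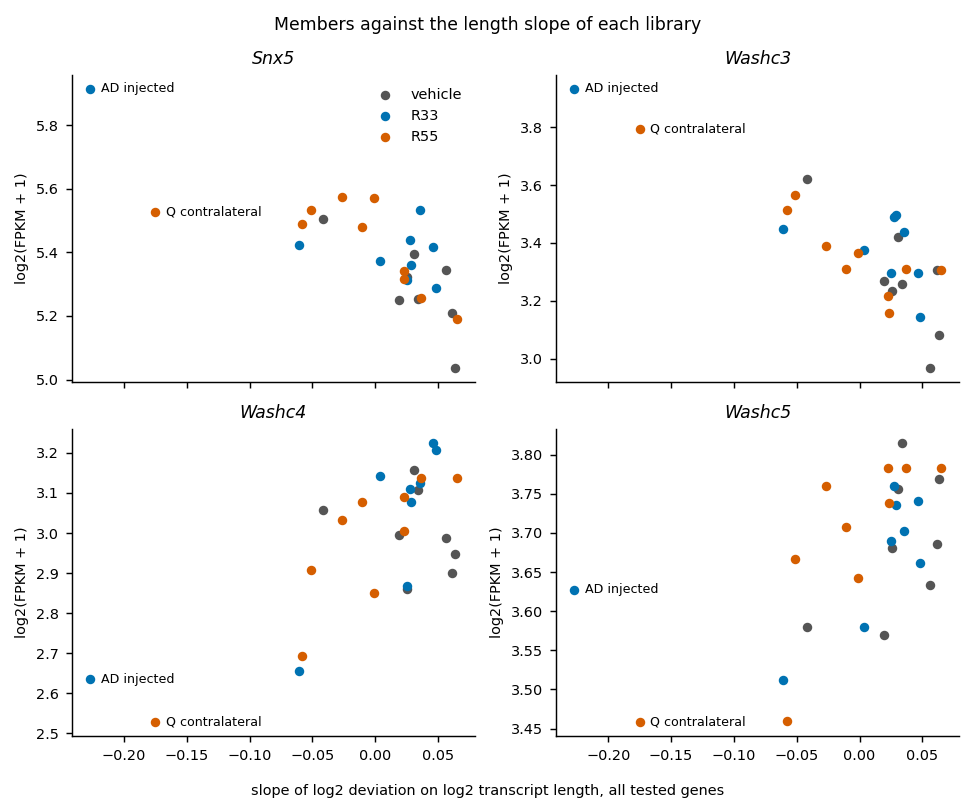
log2(FPKM + 1) of Snx5, Washc3, Washc4 and Washc5 (vertical axes) against the slope of log2 deviation on log2 transcript length over all tested genes (horizontal axis), with a point for each of the 27 libraries coloured by treatment. The libraries AD injected and Q contralateral lie at slopes of -0.227 and -0.175, with Snx5 and Washc3 high and Washc4 low there.

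The members varied together in part. Snx5 correlated with Snx6 at r = 0.76 over the 27 libraries, with Washc3 at 0.76 and with Snx1 at 0.64, and Washc4 correlated with Washc5 at 0.68. Washc1 and Washc4, subunits of the same complex, ran against each other at -0.60. With the length trend removed the values were 0.49 for Snx5 and Snx6, 0.52 for Snx5 and Washc3, 0.51 for Washc4 and Washc5 and -0.53 for Washc1 and Washc4. The 4 SNX-BAR genes were positively correlated in every pair, from 0.48 to 0.76 before and from 0.12 to 0.49 after that step.

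The genes most like each member over the same 27 libraries were not on any of the pathway lists. They were Bckdhb (r = 0.88) and Fez1 (0.85) for Snx1, Ube2e1 (0.92) and Strap (0.88) for Snx2, Dazap2 (0.93) and Dhrs4 (0.92) for Snx5, and Prdx1 (0.92) and Rhoa (0.91) for Snx6. For the WASH genes they were Tbc1d17 (0.86) and Smg9 (0.86) for Washc1, Cdc42ep1 (0.84) and Map4 (0.81) for Washc2, 1810037I17Rik (0.92) and Smim4 (0.91) for Washc3, Asb7 (0.91) and Gucy1a2 (0.91) for Washc4, and Mtmr9 (0.79) and Jak1 (0.78) for Washc5. The genes most like Snx5, Snx6 and Washc3 had slope correlations from -0.75 to -0.90, and those most like Washc4 and Washc5 from 0.78 to 0.89.

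Washc2, the member with the weakest correlation with the length slope, varied with the markers of several cell types. It correlated at r = 0.68 (Spearman's rho 0.46, 27 libraries) with the summed level of the oligodendrocyte markers Mbp, Mog and Mag, which ran from 245 to 1179 FPKM, and at 0.48 without the 2 libraries farthest from the median. With the sums of the neuronal and of the cortical excitatory markers it ran the other way, at r = -0.53 (rho -0.44) and -0.56 (rho -0.39), and both values were -0.60 without the 2 farthest libraries. With the microglial sum it stood at 0.37 (rho 0.45), where Washc4 stood at -0.29 (rho -0.47). The highest Washc2 values, 35.6 FPKM in the injected hemisphere of R33 mouse O and 34.8 FPKM in the contralateral hemisphere of vehicle mouse M, were from the libraries with the highest oligodendrocyte sums of their treatments, 1179 and 1060 FPKM. The lowest, 22.3 FPKM, was from the contralateral hemisphere of vehicle mouse L, which had the lowest sum. With the same oligodendrocyte sum Snx1 correlated at r = 0.54 (rho 0.45), Snx6 at 0.44 (rho 0.45) and Snx5 at 0.43 (rho 0.31). Without the 2 farthest libraries these were 0.34, 0.25 and 0.16. The remaining members lay between -0.20 and 0.27 over the 27 libraries. In bulk tissue, fewer cells of a type and less RNA per cell cannot be told apart. The oligodendrocyte sums had medians of 646, 872 and 525.6 FPKM in the injected hemisphere of vehicle, R33 and R55 mice and of 602, 629 and 794 FPKM in the contralateral one. The microglial sums had medians of 126, 126 and 164 FPKM on the injected and 142, 127 and 149.8 FPKM on the other side, in the same order, and the astrocyte sums had medians from 282 to 303 FPKM over the 6 groups. The part of these sums in the comparisons was not tested.

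The rest of the pathway was read from lists of 48 further genes. None was called in any of the 6 comparisons. Of the 8 other SNX-BAR nexins none passed for R55 against vehicle, with a median of 0.023, and the largest estimates were those of Snx8, 0.16 ± 0.098 (adjusted p = 0.622 by limma), and Snx9, an endocytic nexin, 0.13 ± 0.060 (adjusted p = 0.574). Of the 8 retromer core and recruiting genes none passed, with a median of 0.036; Snx3, which recruits retromer without a BAR domain, had 0.11 and Tbc1d5, the Rab7 GAP that retromer binds, -0.079. Vps35, the subunit that both compounds are meant to steady, stood at 57.9 ± 5.00 FPKM (SD, n = 27) and differed by 0.031 ± 0.063.

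The actin arm that WASH drives was likewise without a call. Of 10 Arp2/3 genes 0 passed, with a median of -0.0080, led by Arpc1b at 0.23 ± 0.22 and Arpc5 at -0.19 ± 0.16. The 3 capping protein genes had estimates from 0.012 to 0.039, Capza2 at 0.039 and Capzb at 0.034. Of the 14 Commander genes, whose products sort cargo on the same endosomes with SNX17, none passed and 13 had estimates above 0, beside 60.2% of all genes, with a median of 0.071, Vps26c at 0.16 ± 0.059 (unadjusted p = 0.012, adjusted p = 0.552) and Commd5 at 0.14 ± 0.077. With the length trend removed 9 of the 14 Commander estimates lay above 0, beside 51.2% of all genes, with a median of 0.0086, and 0 of the 3 capping estimates did, with a median of -0.018.

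Of the 5 cargo genes none passed for R55 against vehicle, with a median of -0.19. Sorl1, the sorting receptor for APP, averaged 40.4 FPKM in vehicle libraries, 30.9 in R33 libraries and 29.8 in R55 libraries. It differed by -0.41 ± 0.14 for R55 (unadjusted p = 0.0078, adjusted p = 0.545 by limma). For R33 it differed by -0.39 ± 0.15 (unadjusted p = 0.0135, adjusted p = 0.834 by limma). Igf2r, the mannose 6-phosphate receptor, had -0.25 ± 0.096 for R55 (unadjusted p = 0.015, adjusted p = 0.552 by limma). With the length trend removed these became -0.24 and -0.13 for R55.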

How the data were processed

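PolyA RNA was sequenced with a stranded mRNA kit. Paired reads were mapped by the authors with HISAT2 on GRCm39, and the table they deposited gives 1 FPKM value per gene and library; the counter and its annotation are not given in the sources used here. Of 32 libraries in the table, 27 matched a sample label, 5 were not used, and 32 repeated header lines were dropped. Whole fragments were recovered from 100.0% of the values (tolerance 0.01), which gave depth and gene length.

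Genes whose mean reached 1 FPKM were fitted on log2(FPKM + 1), a scale that understates changes of low genes, with limma 3.58.1 (R 4.3.3; intensity trend, Benjamini-Hochberg over 12976 genes, call at 0.05), with treatment and hemisphere as additive factors, and with their interaction in a second fit. In this fit both blocks of 1 mouse count as separate libraries; the mouse letters in the titles pair them. The correlation of deviations within the 13 pairs ran from -0.079 to 0.65 and was over 0.1 in 11, and the modelled correlation was 0.347. Exact permutation tests over mice and correlations used Python 3.11.15 with NumPy 2.4.6 and SciPy 1.17.1. The fit was also run on simulated fragments. These were drawn without a mouse effect or a length trend, so that run cannot show how the fit handles either.

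The members and gene lists were chosen with earlier results of these data known. All members are named; of the lists, any called gene and otherwise the 2 with the largest absolute R55 estimate per list, plus Vps35, added after its value was seen; and for each member the 2 genes with the highest Pearson correlation. Some genes of the lists are not reported here, and the lists' sums and counts are without them. Mice are separate animals, but whether mice came from shared litters or cages is not given here. Promoter sequence came from RefSeq (GRCm38.p6) and positions from GENCODE vM39.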

Additional observations from a re-analysis of the deposited data

Results flagged for a closer look

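In 3 of the 54 sets of 1 member in 1 group, a library stood apart from the rest of its group by Dixon's criterion, which chance meets in about 1 of 20 groups. Snx6 was 26.7 FPKM in the injected hemisphere of R33 mouse AD, against 19.5 to 21.5 FPKM in the other 4, and this is the library with the steepest length slope. Snx6 was 27.6 FPKM in the injected hemisphere of R55 mouse AA, against 18.7 to 20.6 FPKM in the other 4. That library had the highest summed microglial markers, 217.7 FPKM against a median of 137.0 over all libraries. Snx6 correlated with the microglial sum at r = 0.31 over 27 libraries, and at 0.022 without the injected libraries of mice AA and Q. A link was not tested. Washc3 was 9.70 FPKM in the injected hemisphere of vehicle mouse J, against 8.42 to 8.63 FPKM in the other 3.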

How the results depend on the processing

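No member was called in any of 1548 fits of a member and a comparison over 32 settings, the lowest adjusted p being 0.3004 by limma. Modelling the pairing with the mouse as a replicate block left 0 members and 0 genes called between hemispheres and in both interactions, against 0 and 0 without it. The number of all genes called for R55 against vehicle moved from 1 to 0 with 1 value per mouse, either hemisphere alone, correlation within mice modelled, the length trend removed, median-of-ratios scaling, no filter, or the label series as covariate, to 12 with only the compared treatments, and, in settings chosen after seeing the data, to 5 in mice with a one-letter label and 19 without the injected library of mouse AD; without the contralateral library of mouse Q it was 1. Leaving out each mouse gave 0 to 50 (50 without mouse AD), and 0 to 2 for R55 against R33. No filter gave 1 gene for R33 against vehicle, and the modelled correlation gave 1 between hemispheres. The single member with an exact p under 0.05 over mice became 0 to 2 when a mouse was left out (2 without mouse J, which were Snx2 for R55, beside 8.48% of all genes, and Snx1 for R33, beside 3.47%).

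Some uncalled estimates changed sign. Without the injected library of mouse AD, the members above 0 went from 3 to 7 of 9 for R55 against R33. For the R33 effect by hemisphere they went from 8 to 2 of 9. Snx2 for R55 against vehicle was -0.023 in mice with a one-letter label and ran from -0.017 to 0.196 over the mice left out. Washc4 was 0.048 for R55 against vehicle and 0.089 for R55 against R33 in the injected hemisphere, and from -0.155 to 0.009 for the latter over the mice left out. Washc2 for R55 against R33 was 0.008 in the contralateral hemisphere. The causes were not tested. Intervals of the comparisons with vehicle reached from 0.851 to 1.29 in fold with libraries taken as separate, and from 0.837 to 1.32 with the correlation within mice modelled.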
